A study of Xenopus laevis with 9 samples.

Results

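The genes described here are the negative feedback regulators and close targets of fibroblast growth factor (FGF) signalling: the phosphatase gene dusp6, the sprouty genes spry1 and spry2, and the ETS transcription factor genes etv1, etv4 and etv5. The rule that picked them used symbols alone, but it was set with earlier results of these data known. The L and S copies (homeologs) of the allotetraploid frog *Xenopus laevis* were kept apart. The deposited count table held 8 such genes among 58413: dusp6.L, dusp6.S, spry1.L, spry1.S, spry2.L, spry2.S, etv1.S and etv4.L. Of the 6 symbols 5 were matched, and etv5 was not. After edgeR's filter on low counts 6 of the 8 were tested. dusp6.S and spry2.L did not pass it.

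The libraries came from wild-type anterior explants (in the labels, the front part of bisected embryos), taken from embryos of 3 females at Nieuwkoop and Faber (NF) stage 12.5, the end of gastrulation, and grown to NF stage 15, the early neurula. Tissue was kept in 1 µM retinoic acid (RA), in 10 µM 4-oxo-RA, a derivative of RA with an oxo group on its ring, or in the solvent dimethyl sulphoxide (DMSO), for which 10 µM is also stated. Each treatment had 3 libraries, sequenced together. The retinoid doses differed by design, so the 2 retinoids are set side by side and a test between them compares the samples as treated. The labels do not say which female, or how many explants, stand behind a library, so the spread behind each p-value may be in part technical. Total counts per library, in units of 1e+06, ranged from 9.40 to 20.9. In the DMSO libraries the forebrain gene otx2.L stood at 218 ± 25.0 CPM (counts per 1e+06 counts of the library, mean ± SD, n = 3) and the cement gland gene ag1.L at 1311 ± 267.5 CPM, so markers of the labelled anterior tissue were present.

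FGF ligands bind receptor tyrosine kinases, which pass the signal through Ras and Raf to the kinase ERK. ERK activates the PEA3 group of ETS factors (etv1, etv4 and etv5), and it induces its own brakes: dusp6 removes the activating phosphates from ERK in the cytoplasm, and sprouty proteins block the relay below the receptor. In vertebrate embryos these genes are transcribed near FGF sources such as the midbrain-hindbrain boundary, the tail bud and the pharyngeal region, and they are widely used as readouts of FGF activity. ERK activity itself was not measured here.

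Of the 6 tested genes 4 rose with RA and also with 4-oxo-RA: dusp6.L, spry2.S, etv1.S and etv4.L, by 1.86-fold to 3.65-fold with RA and by 1.63-fold to 2.92-fold with 4-oxo-RA. Both spry1 copies stayed near their DMSO levels. In edgeR's quasi-likelihood test a gene was called at an adjusted p below 0.05 over 20811 genes. With RA, 1.22% of all tested genes were called higher and 0.456% lower, and with 4-oxo-RA 0.625% were called higher and 0.111% lower. Of the feedback genes 4 of 6 were called higher and 0 lower with each. A fit with the replicate number as a term, described below, called the same 4. It called 3.5% of all genes higher with RA and 2.05% with 4-oxo-RA. The 2 sets of 4 are not independent of each other, because both retinoids were set against the same DMSO libraries. Within each set etv1.S and etv4.L may be copies of a single gene, as set out below. The symbols were chosen with earlier results of these data known, so the contrast with all genes is a description. In RNA from whole tissue, a change in the number of cells that transcribe a gene and a change in RNA per cell cannot be told apart.

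dusp6.L, the ERK phosphatase, showed the largest change of the 6. Its level was 54.5, 50.7 and 43.8 CPM in DMSO replicates 1 to 3, 184, 162 and 197 CPM with RA, and 160, 132 and 143 CPM with 4-oxo-RA. The lowest RA library and the lowest 4-oxo-RA library both lay far above the highest DMSO library, and every RA library lay above every 4-oxo-RA library. The share of all genes whose groups do not overlap was not counted, so such separation, here and below, is a description. The mean rose from 49.7 ± 5.41 to 181 ± 17.3 CPM with RA (SD, n = 3), a log2 change of 1.87 ± 0.12 (SE, edgeR adjusted p = 3.03e-05). With 4-oxo-RA the mean was 145 ± 14.0 CPM and the log2 change 1.55 ± 0.12 (edgeR adjusted p = 0.000217). By p-value dusp6.L ranked 10 of 20811 genes with RA and 9 with 4-oxo-RA. Its S copy had 0 counts in all 9 libraries, which allows a level of up to 0.0606 CPM in DMSO, 0.0731 CPM with RA and 0.0799 CPM with 4-oxo-RA, from 3 counts over each group and for counting error only.

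spry2.S was the one copy of spry1 or spry2 that was called higher. It stood at 17.8, 19.1 and 13.4 CPM in DMSO, 40.4, 48 and 41.6 CPM with RA, and 39.6, 33.4 and 32.5 CPM with 4-oxo-RA. The treated libraries did not overlap with DMSO, and the RA libraries lay just above those with 4-oxo-RA. The change was 1.37 ± 0.16 on the log2 scale with RA (edgeR adjusted p = 0.00125), a 2.58-fold rise. With 4-oxo-RA it was 1.07 ± 0.16 (edgeR adjusted p = 0.0118), a 2.09-fold rise, and it missed the threshold once 4-oxo-RA replicate 1 was left out (edgeR adjusted p = 0.0558). The L copy of spry2 was barely detected, with 5 counts over the DMSO libraries, 9 with RA and 6 with 4-oxo-RA, so a change in it was not detectable at this depth.

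spry1 was expressed from both copies and neither was called. spry1.L stood at 28.6, 27.4 and 17.9 CPM in DMSO, 33.8, 18.3 and 22.6 CPM with RA, and 30.6, 22.4 and 22 CPM with 4-oxo-RA. Its groups overlapped fully, and within each group replicate 1 was the highest. spry1.S stood at 20.1, 21.1 and 18.2 CPM in DMSO, 29, 18.9 and 19.8 CPM with RA, and 27.3, 23.4 and 21.7 CPM with 4-oxo-RA. Its 3 libraries with 4-oxo-RA lay just above the highest DMSO library, while those with RA overlapped with DMSO. The log2 changes with RA were 0.01 for spry1.L (95% interval −0.55 to 0.57, edgeR adjusted p = 0.997) and 0.19 for spry1.S (−0.22 to 0.59, edgeR adjusted p = 0.907). With 4-oxo-RA they were 0.02 (−0.54 to 0.58) and 0.28 (−0.12 to 0.69), both with an edgeR adjusted p of 1. All 4 intervals hold 0, and all 4 end below the estimate for spry2.S under the same retinoid. The sign of the spry1.L change turned when single libraries were left out.

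The genes with PEA3 symbols in the table, etv1.S and etv4.L, both rose. They may be the L and S copies of a single gene, as set out below. etv1.S stood at 133, 154 and 119 CPM in DMSO, 283, 305 and 314 CPM with RA, and 247, 238 and 305 CPM with 4-oxo-RA. etv4.L stood at 111, 118 and 97.6 CPM in DMSO, 208, 208 and 190 CPM with RA, and 161, 174 and 198 CPM with 4-oxo-RA. For both genes every treated library exceeded every DMSO library, whereas the RA and 4-oxo-RA libraries overlapped. Such separation is not a call, and with 4-oxo-RA spry1.S, which was not called, also lay apart from DMSO. With 3 libraries against 3, full separation gives an exact permutation p (two-sided) of 0.1. The share over all genes was not counted. With RA the log2 change of etv1.S was 1.15 ± 0.12 (edgeR adjusted p = 0.000656) and that of etv4.L 0.89 ± 0.11 (edgeR adjusted p = 0.00159). With 4-oxo-RA they were 0.96 ± 0.12 (edgeR adjusted p = 0.00449) and 0.71 ± 0.11 (edgeR adjusted p = 0.0133). The etv4.L call with 4-oxo-RA did not survive leaving out DMSO replicate 1, DMSO replicate 3 or 4-oxo-RA replicate 3, at edgeR adjusted p-values of 0.0624, 0.0775 and 0.0701. All 4 calls with RA held with any library left out, and the highest edgeR adjusted p among those fits was 0.0114, for etv4.L.

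**Figure D1:**
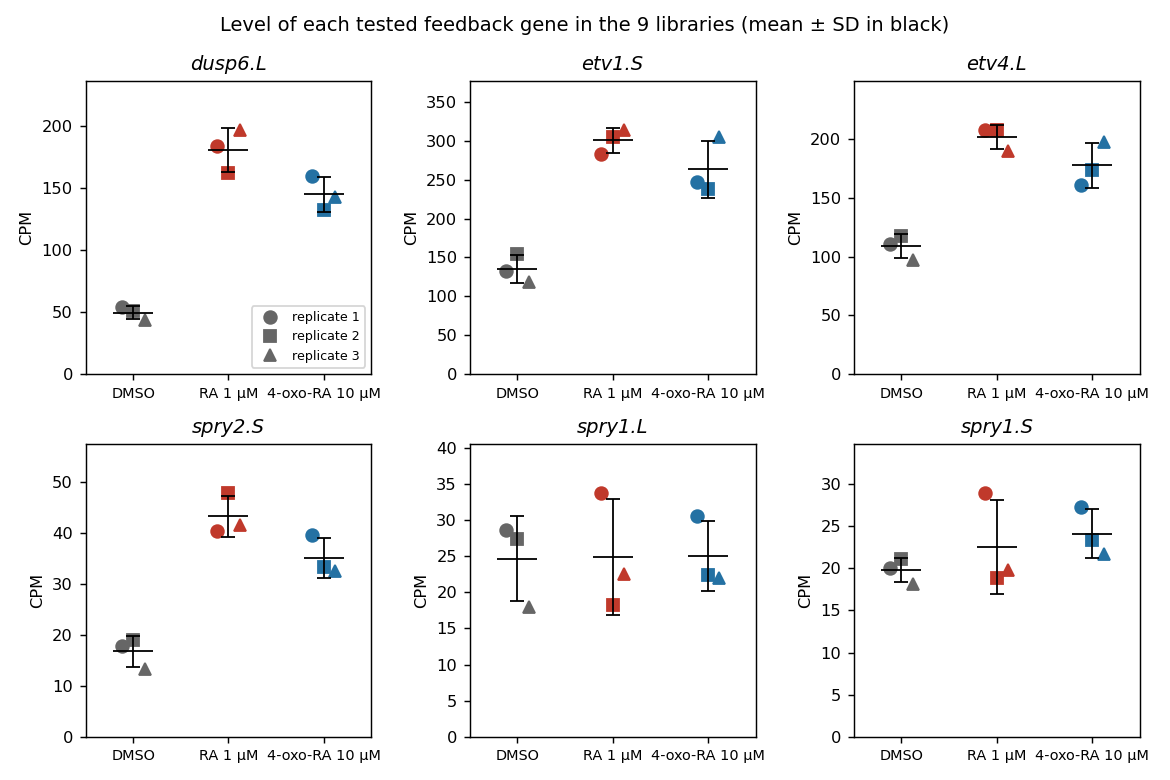
Level in CPM (y axis, from 0) of each of the 6 tested feedback genes in the 3 DMSO, 3 RA and 3 4-oxo-RA libraries, with marker shapes for replicate numbers and black bars for the mean ± SD. For dusp6.L, spry2.S, etv1.S and etv4.L all treated libraries lie above all DMSO libraries, while the spry1.L groups overlap. The 4-oxo-RA libraries of spry1.S, which was not called, also lie above its DMSO libraries.

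Replicate numbers marked a spread shared by all 3 treatments, so each treated library was also set against the DMSO library of the same number, and values called blocked come from an edgeR fit with the number as a term. For dusp6.L the log2 difference with RA was 1.75, 1.68 and 2.16 for numbers 1 to 3, and with 4-oxo-RA 1.55, 1.38 and 1.70. With etv1.S it was 1.09, 0.99 and 1.39 under RA, and 0.89, 0.63 and 1.35 under 4-oxo-RA. For etv4.L, RA gave 0.91, 0.82 and 0.96, and 4-oxo-RA gave 0.54, 0.56 and 1.02. Every difference of these genes was positive, and number 3 gave the largest one for each of the 3 under each retinoid. spry2.S followed the same pattern, at 1.17, 1.32 and 1.62 under RA, and at 1.15, 0.80 and 1.27 under 4-oxo-RA. In DMSO replicate 3 all 4 genes were at their lowest. spry1.L gave 0.24, −0.58 and 0.33 under RA, and 0.10, −0.29 and 0.29 under 4-oxo-RA. spry1.S gave 0.53, −0.16 and 0.13 under RA, and 0.44, 0.15 and 0.26 under 4-oxo-RA. The sign thus varied between numbers for spry1.L under each retinoid and for spry1.S under RA, while spry1.S under 4-oxo-RA was positive at all 3. The coefficient of variation of spry1.L within groups was 23.7% in DMSO, 32.2% with RA and 19.5% with 4-oxo-RA, against 10.9%, 9.55% and 9.66% for dusp6.L.

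Set against RA, the tissue kept in 4-oxo-RA had lower means for all 4 genes that rose, and 0 of the 6 feedback genes was called. Over all genes 0% were called by edgeR, with 532 at an unadjusted p below 0.05, and DESeq2 called 13 and limma-voom 1, none of them a feedback gene. The blocked fit called 0.159% of all genes, 0.024% higher and 0.135% lower with 4-oxo-RA than with RA, and again 0 feedback genes. dusp6.L was 19.9% lower with 4-oxo-RA, a log2 difference of −0.32 (95% interval −0.59 to −0.05, edgeR unadjusted p = 0.0231, adjusted p = 1), lower at each of the 3 replicate numbers by −0.20, −0.30 and −0.46. In the fit without the block it was the 1 feedback gene of 6 under an unadjusted p of 0.05. In the blocked fit both dusp6.L (−0.32, edgeR unadjusted p = 0.00355, adjusted p = 0.343) and spry2.S (−0.31, unadjusted p = 0.0317, adjusted p = 0.594) were under it. Without the block the difference for spry2.S was −0.30 (−0.66 to 0.05), with −0.03, −0.52 and −0.36 by number. etv1.S and etv4.L both differed by −0.19, with intervals of −0.46 to 0.08 and −0.43 to 0.06. For these 3 genes the intervals without the block hold both 0 and a difference of at least the size estimated for dusp6.L. spry1.L differed by 0.01 (−0.55 to 0.57) and spry1.S by 0.10 (−0.31 to 0.50). 4-oxo-RA was given at 10 µM and RA at 1 µM, so these differences do not compare the compounds at a matched dose.

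**Figure D2:**
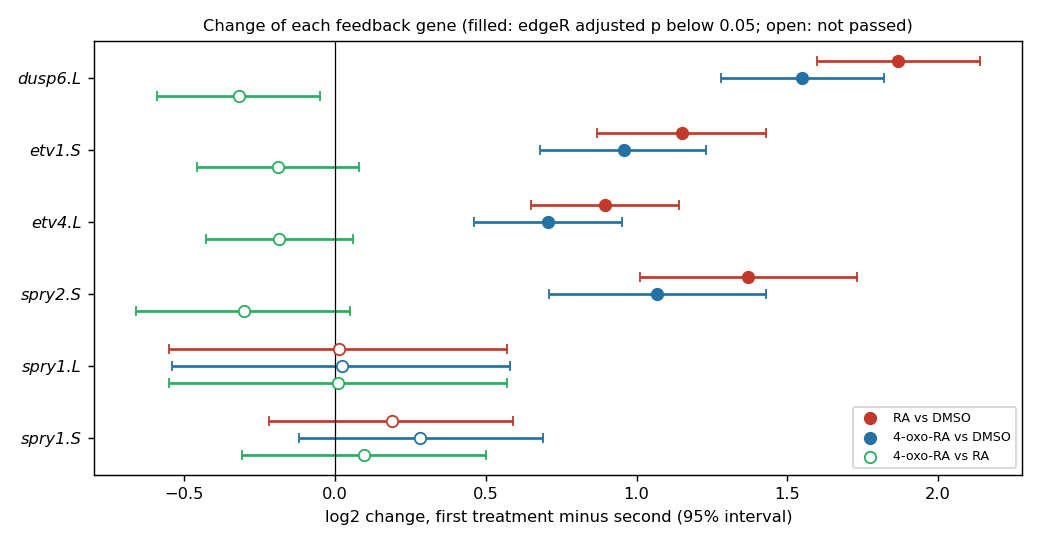
Log2 change (x axis) of each of the 6 tested feedback genes for RA against DMSO, 4-oxo-RA against DMSO and 4-oxo-RA against RA, with 95% intervals from the edgeR fit and filled points at an adjusted p below 0.05. The 4 genes called with each retinoid run from etv4.L (0.89 and 0.71) to dusp6.L (1.87 and 1.55), and every point for 4-oxo-RA against RA is open.

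Because ratios of counts within a library carry no scaling between libraries, the balance among feedback genes was also followed that way. These 4 ratios were chosen after the levels had been seen, so they restate the unequal changes given above and are not further support. With 3 libraries against 3 the exact permutation test (two-sided) cannot go below 0.10. Spry2.S relative to the summed spry1 copies had a log2 ratio of −1.41 ± 0.06 in DMSO (SD, n = 3), −0.10 ± 0.51 with RA and −0.48 ± 0.06 with 4-oxo-RA. The sprouty balance thus moved by 1.31 with RA and by 0.93 with 4-oxo-RA on the log2 scale. dusp6.L relative to etv4.L went from −1.13 ± 0.10 in DMSO to −0.16 ± 0.20 with RA and −0.29 ± 0.25 with 4-oxo-RA. dusp6.L relative to etv1.S went from −1.45 ± 0.16 to −0.73 ± 0.15 and −0.86 ± 0.23. Both ratios of the phosphatase to a PEA3 factor were thus higher in every treated library than in every DMSO library. etv1.S relative to etv4.L went from 0.31 ± 0.06 to 0.57 ± 0.14 with RA and 0.57 ± 0.10 with 4-oxo-RA. Each of these 8 differences from DMSO had no overlap between groups and an exact permutation p of 0.1 (0.15 after Benjamini-Hochberg adjustment over 12 tests). The 8 are not independent of each other. All use the same DMSO libraries, and the ratio of dusp6.L to etv4.L follows from dusp6.L over etv1.S and etv1.S over etv4.L. The share of other gene pairs without overlap was not counted. Between 4-oxo-RA and RA the exact permutation p was 0.4 for spry2.S over spry1, 0.5 and 0.6 for dusp6.L over etv4.L and over etv1.S, and 1 for etv1.S over etv4.L.

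**Figure D3:**
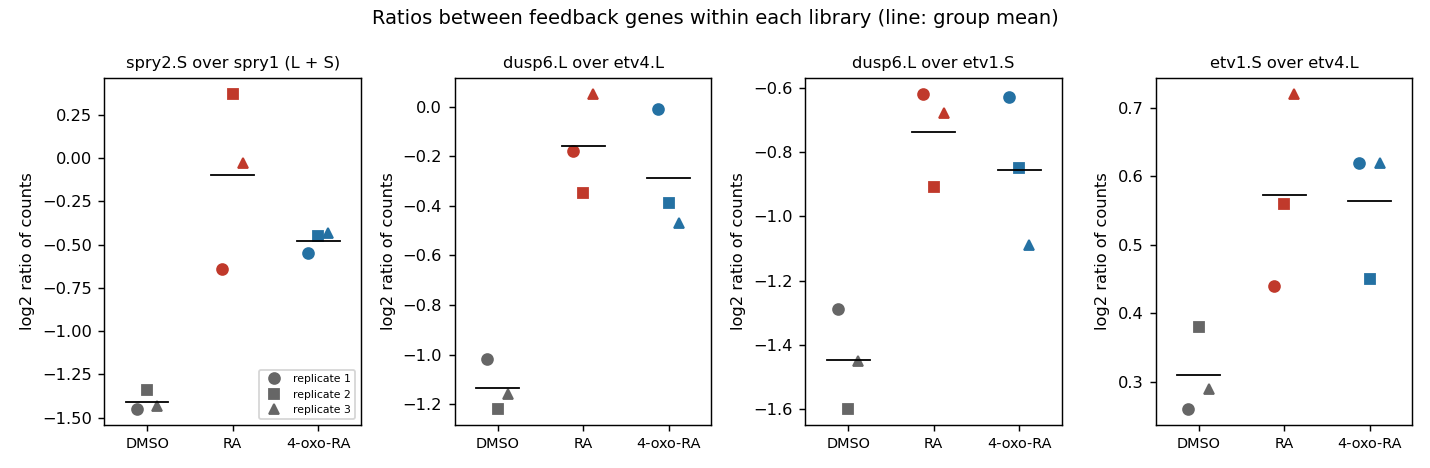
Log2 ratio of counts (y axis, ranges differ between panels) for 4 pairs of feedback genes in each of the 9 libraries, with marker shapes for replicate numbers and a line at each group mean. In every panel the DMSO libraries lie below all treated libraries, and the ranges of the RA and 4-oxo-RA libraries overlap.

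The copies of spry1 kept a similar balance in all 3 groups. spry1.L held 55.0 ± 4.69% of the spry1 counts in DMSO, 52.1 ± 2.50% with RA and 50.7 ± 2.00% with 4-oxo-RA (SD, n = 3). In limma on log2 ratios of 3512 homeolog pairs, the change of the L copy minus that of the S copy was −0.17 ± 0.19 with RA (adjusted p = 0.909) and −0.25 ± 0.19 with 4-oxo-RA (adjusted p = 0.97). Among all pairs 32 differed with RA, 1 with 4-oxo-RA and 0 between the retinoids, where 110 had an unadjusted p below 0.05. For spry2 the L copy held under 1% of counts in every group, 0.452% in DMSO, 0.426% with RA and 0.465% with 4-oxo-RA. dusp6 was detected from L alone. How reads shared by both copies were counted was not stated in the labels, so the split between copies is less certain than their sum, and the summed spry1 counts changed by 0.09 with RA and 0.14 with 4-oxo-RA on the log2 scale.

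etv1.S and etv4.L carry different symbols in the table, but their surroundings were alike. In the RefSeq gene table of assembly Xenopus_laevis_v10.1, Etv1 is given as a synonym of etv4.L, and 4 gene symbols (arl4a, dgkb, meox2 and sostdc1) stood within 5 protein-coding genes of both. The row named etv4.L may thus be the L copy of etv1, in which case etv4 itself was not measured. Whether etv1.S and etv4.L are the L and S copies of 1 gene was not tested by sequence. Their levels also had the closest profile of any pair among the 6 genes, with a root mean square difference of 0.148 in log2 CPM centred over the 9 libraries, against 0.185 for spry1.L and spry1.S. This measure does not mark copies of 1 gene. etv1.S and spry2.S differed by 0.186, and genes outside the 6 lay closer to etv1.S than etv4.L did, such as gse1.L (0.128) and fgf8.L (0.141). etv4.L and etv1.S were added as a pair after their shared flanking genes had been seen. The change of etv4.L minus that of etv1.S was −0.26 ± 0.10 with RA (limma unadjusted p = 0.0336, adjusted p = 0.48 over 3513 pairs). With 4-oxo-RA it was −0.25 ± 0.10 (limma adjusted p = 0.664).

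Among the other members the profile of spry2.S lay between those of the PEA3 factors and dusp6.L, at a difference of 0.186 from etv1.S, 0.261 from etv4.L and 0.272 from dusp6.L. dusp6.L differed from etv1.S by 0.344 and from etv4.L by 0.457. spry1.L was farther away, at 0.841 from dusp6.L.

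The genes with the most similar profiles were then taken from 9976 named genes whose mean reached 5 CPM, and their likeness to the feedback genes is a description. The 5 closest to dusp6.L were gbx2.1.S (difference 0.119), znf703.S (0.135), znf703.L (0.14), meis3.L (0.145) and meis2.L (0.147). gbx2 encodes a homeobox factor of the anterior hindbrain, and meis2 and meis3 encode partners of Hox proteins. Their log2 changes ran from 1.53 for meis2.L to 2.13 for znf703.S with RA. Closest to spry2.S were both copies of tbx1, a T-box gene of the pharyngeal region, at 0.113 for tbx1.L and 0.15 for tbx1.S, followed by gata3.S (0.162), gse1.L (0.165) and stard9.L (0.176). With RA tbx1.L changed by 1.42 and tbx1.S by 1.68 on the log2 scale. For etv1.S the closest were gse1.L (0.128), fgf8.L (0.141), fgfr3.L (0.143), igsf9.S (0.145) and pomgnt2.L (0.151). An FGF ligand gene and an FGF receptor gene were thus among these 5.

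**Figure D4:**
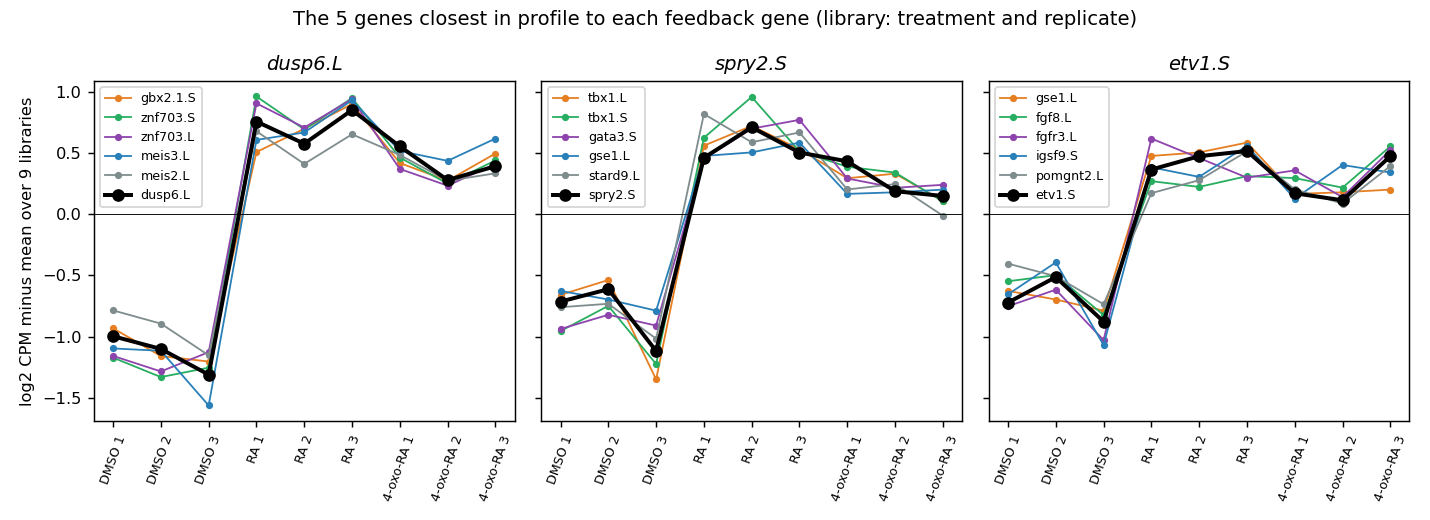
Log2 CPM minus the mean over the 9 libraries (y axis) for dusp6.L, spry2.S and etv1.S (black) and the 5 genes closest to each (colours), by library (x axis). All curves are lowest in DMSO, and dusp6.L peaks in RA replicate 3 while spry2.S peaks in RA replicate 2.

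Of 24 tested genes that flank the feedback genes in the RefSeq table, the 2 nearest on each side, 2 were called with RA and 1 with 4-oxo-RA, beside 1.68% and 0.735% of all tested genes. arl4a.S, which encodes a small GTPase and lies beside etv1.S, rose by 0.87 ± 0.09 with RA (edgeR adjusted p = 0.000548) and by 0.63 with 4-oxo-RA (edgeR adjusted p = 0.00889, lost at 0.0549 without DMSO replicate 2 and at 0.0623 without DMSO replicate 3). arl4a.L, beside etv4.L, had a log2 change of 0.48 with RA (edgeR adjusted p = 0.0685, blocked adjusted p = 0.000945). kitlg.L, which encodes the Kit ligand and lies beside dusp6.L, fell by 0.66 with RA (edgeR adjusted p = 0.0329), a call lost in 6 of the fits that left out a library. On the other side of dusp6.L, poc1b.L changed by 0.51 (edgeR adjusted p = 0.394). The largest change of the 24 was that of fat4.S, beside spry1.S, at −1.4 with RA and −1.33 with 4-oxo-RA. It was not called without the block (edgeR adjusted p = 0.12 and 0.252) but was in the blocked fit (adjusted p = 0.0186 and 0.0431). fat4.L, beside spry1.L, changed by −1.2 with RA (edgeR adjusted p = 0.258). The 4 neighbours of spry2.S had log2 changes from −0.20 to 0.01 with RA. In the blocked fit 4 of the 24 were called with each retinoid, beside 6.67% and 3.36% of all genes.

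Beyond the feedback genes, 115 tested genes of the FGF pathway were taken from 7 lists set by role. With RA 5 of them rose and 1 fell, 5.22% called against 1.68% of all tested genes, and with 4-oxo-RA 4 rose and 0 fell, 3.48% against 0.735%. The lists were set with earlier results of these data known, so the contrast with all genes is a description. The calls include both copies of fgf8 with each retinoid and both copies of erf with RA, so they are not independent. The median log2 change was −0.05 with each retinoid, beside 0 over all genes. The blocked fit called 13 higher and 10 lower with RA, where it called 6.67% of all genes (3.5% higher, 3.17% lower). For 4-oxo-RA it called 10 higher and 2 lower, where it called 3.36% of all genes (2.05% higher, 1.31% lower). Over all genes with RA, DESeq2 called 404 higher and 232 lower of 41216. Limma-voom called 263 and 134 of 20811, and edgeR with no filter on low counts 481 and 350 of 41216. The genes called without the block lay among ligands, receptors, inhibitors and modulators.

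Of 5 tested ligand genes 2 rose, both copies of fgf8, which is also on the list of midbrain-hindbrain boundary markers below. fgf8.L went from 36.2 ± 4.27 CPM in DMSO to 66.9 ± 2.06 with RA and 71.4 ± 8.99 with 4-oxo-RA (SD, n = 3), log2 changes of 0.89 ± 0.13 (edgeR adjusted p = 0.00599) and 0.98 ± 0.13 (edgeR adjusted p = 0.00616). fgf8.S went from 23.1 ± 0.471 to 38.6 ± 1.32 and 41.5 ± 2.71 CPM, changes of 0.74 ± 0.12 (edgeR adjusted p = 0.00827) and 0.85 ± 0.12 (edgeR adjusted p = 0.00637). Unlike the 4 feedback genes that rose, both fgf8 copies had their highest mean with 4-oxo-RA, but their levels under the 2 retinoids were not called different. fgf14.S, of the FGF group that acts inside cells, changed by −1.30 ± 0.33 with RA (edgeR adjusted p = 0.108, blocked adjusted p = 0.0119). DESeq2 also called 1 ligand gene lower with RA. The median log2 change of the 5 ligand genes was −1.05 with RA and −0.35 with 4-oxo-RA, opposite in sign to the 2 called genes. In all, 10 ligand genes of the list had 0 counts in all libraries.

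Of 9 tested receptor genes 1 rose with each retinoid, fgfr3.L. Its level went from 16.2 ± 2.31 CPM in DMSO to 38.7 ± 4.28 with RA and 35.7 ± 4.73 with 4-oxo-RA, log2 changes of 1.26 ± 0.16 (edgeR adjusted p = 0.00217) and 1.15 ± 0.16 (edgeR adjusted p = 0.00725). The calls of fgf8.L, fgf8.S and fgfr3.L held with any library left out. fgfr3.S changed by 0.28 ± 0.30 with RA (edgeR adjusted p = 0.916). fgfr1.L, a copy of another receptor gene, changed by 0.41 ± 0.11 with RA (edgeR adjusted p = 0.124, blocked adjusted p = 0.00375) and by 0.41 with 4-oxo-RA (0.231, blocked adjusted p = 0.00698).

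None of the 21 tested genes of the relay from receptor to ERK was called by edgeR, blocked or not, by DESeq2 or by limma-voom with either retinoid. At an unadjusted edgeR p below 0.05 there was 1 with RA and 0 with 4-oxo-RA, beside 1961 and 1298 of all 20811 tested genes. With 4-oxo-RA the smallest p belonged to frs2.S, the adaptor of FGF receptors, which changed by −0.17 (edgeR adjusted p = 1). The median change of the relay was −0.03 with RA and 0.01 with 4-oxo-RA.

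Among 27 other inhibitors of FGF and ERK signalling 2 rose with RA and 1 with 4-oxo-RA, all of them copies of erf, which encodes an ETS repressor that ERK exports from the nucleus. erf.S went from 16.1 ± 1.57 CPM in DMSO to 46.9 ± 8.01 with RA and 36.7 ± 8.35 with 4-oxo-RA, log2 changes of 1.54 ± 0.19 (edgeR adjusted p = 0.00157) and 1.19 ± 0.19 (edgeR adjusted p = 0.0149). The call with 4-oxo-RA did not survive leaving out DMSO replicate 1, 2 or 3 or 4-oxo-RA replicate 1, at edgeR adjusted p-values of 0.0652, 0.0994, 0.0534 and 0.0534. erf.L changed by 1.07 ± 0.20 with RA (edgeR adjusted p = 0.0261), from 85.0 ± 10.8 to 178 ± 32.1 CPM, and this call was lost without any DMSO library or without RA replicate 1 or 3 (0.067 to 0.128). With 4-oxo-RA it changed by 0.84 ± 0.20 (edgeR adjusted p = 0.158, blocked adjusted p = 0.000177). The median change of these 27 genes was −0.11 with RA and −0.04 with 4-oxo-RA, and 9 changes with RA and 12 with 4-oxo-RA were positive. The blocked fit called 5 higher and 3 lower with RA, and 4 higher and 1 lower with 4-oxo-RA. spry4.L, another sprouty gene, changed by 0.51 ± 0.27 with RA and 0.61 with 4-oxo-RA (edgeR adjusted p = 0.669 and 0.793, blocked adjusted p = 0.0158 and 0.00686). il17rd.L, the receptor-like FGF inhibitor also called Sef, changed by 0.71 ± 0.21 with RA (edgeR adjusted p = 0.194, blocked adjusted p = 0.00277). spry4.L and il17rd.L were named after their values had been seen, and the inhibitor genes that the blocked fit called lower are not named. The lowest change of the 27 genes was −0.98 with each retinoid.

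Of 16 other FGF-linked modulators 1 fell with RA and 0 were called with 4-oxo-RA, while the blocked fit called 1 higher and 4 lower with RA and 1 lower with 4-oxo-RA. ndst1.S, which encodes an enzyme that sulphates heparan sulphate, went from 45.8 ± 2.35 to 30.1 ± 1.18 CPM with RA, a log2 change of −0.61 ± 0.12 (edgeR adjusted p = 0.0294). That call was lost without any one of the DMSO or RA libraries (0.0676 to 0.132). With 4-oxo-RA it changed by −0.36 (edgeR adjusted p = 0.445). There 3 modulators were under an unadjusted edgeR p of 0.05, beside 1298 of all 20811 genes, DESeq2 called 1 lower and limma-voom 0. The modulator with the smallest p there was flrt2.S, which encodes a membrane protein of the FLRT family.

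The other 18 tested ETS factors and 19 early-response or FGF target genes gave 0 calls with either retinoid in the unblocked edgeR fit. The blocked fit called 1 ETS factor lower with RA and 0 with 4-oxo-RA, and of the early-response and target genes 3 higher and 1 lower with RA and 2 higher with 4-oxo-RA. With no filter on low counts, edgeR called 2 early-response or target genes higher with RA and 1 with 4-oxo-RA. Of all 20811 tested genes 1961 with RA and 1298 with 4-oxo-RA were under an unadjusted edgeR p of 0.05. For the ETS factors 1 gene with RA and 0 with 4-oxo-RA were under it, and DESeq2 and limma-voom called 0. ets1.S had the smallest p with each retinoid, with log2 changes of −0.39 and −0.26. For the early-response and target genes 5 with RA and 2 with 4-oxo-RA were under 0.05, DESeq2 called 1 higher with RA and 0 with 4-oxo-RA, and limma-voom called 0. In that list myc.S had the smallest p, with a change of 0.67 ± 0.17 with RA (edgeR adjusted p = 0.102, blocked adjusted p = 0.000134) and 0.50 with 4-oxo-RA (edgeR adjusted p = 0.464). egr1.L, a rapid ERK target, changed by −0.66 with RA (edgeR adjusted p = 0.679) and was named after its value had been seen.

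**Figure D5:**
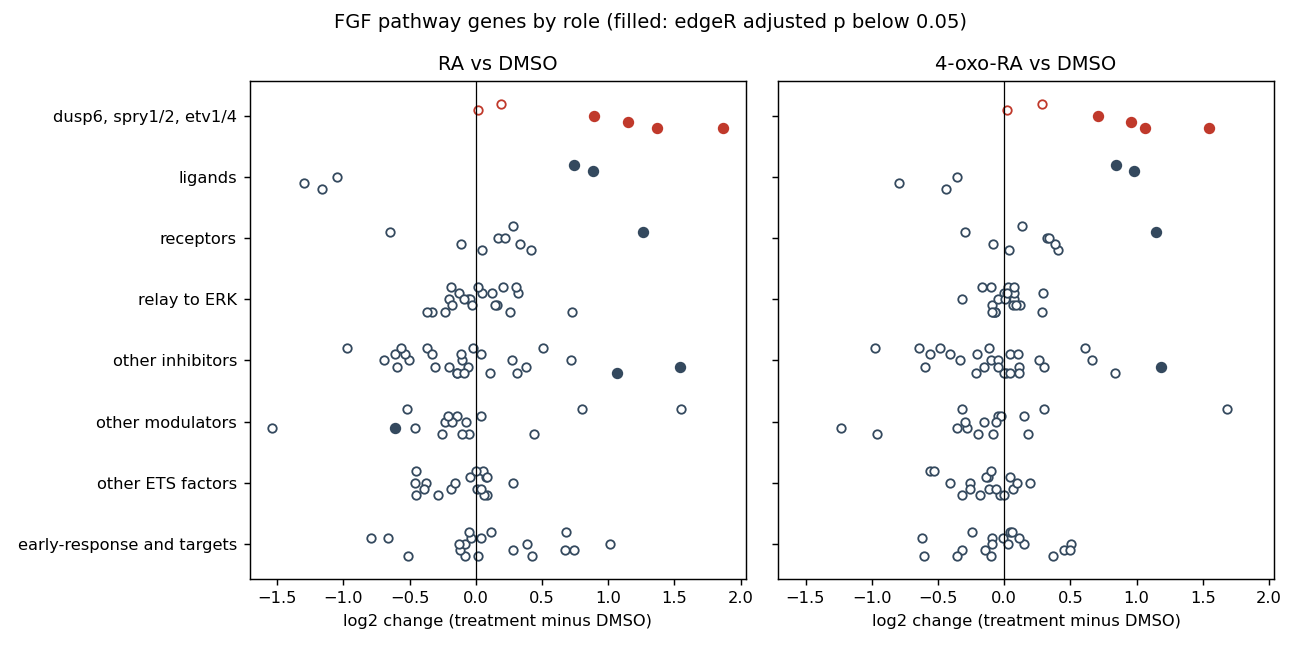
Log2 change (x axis) of each tested FGF pathway gene with RA (left) and 4-oxo-RA (right) against DMSO, grouped by role (y axis), with the feedback genes in red and filled points at an edgeR adjusted p below 0.05. The filled points outside the feedback genes are fgf8.L, fgf8.S, fgfr3.L and erf.S with each retinoid, and erf.L and ndst1.S with RA.

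Markers of regions and cell types that the anterior explants could hold moved in the same libraries. Without the block, 1.68% of all tested genes were called with RA and 0.735% with 4-oxo-RA. The marker lists, too, were set with earlier results of these data known, so the contrast with all genes is a description. Of 13 tested hindbrain and neck markers 10 rose and 1 fell with RA, and 9 rose and 1 fell with 4-oxo-RA. The lowest log2 change among them was −5.02 with RA and −4.57 with 4-oxo-RA. Their summed level was 132 to 210 CPM in DMSO, 667 to 855 with RA and 453 to 585 with 4-oxo-RA, and hoxb4.L was at 0. Of 8 pronephros and intermediate mesoderm markers 5 rose with each retinoid, from 101 to 124 CPM in DMSO to 398 to 443 with RA and 270 to 359 with 4-oxo-RA, with none at 0. The 4-oxo-RA count fell to 2 to 4 when single libraries were left out.

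Forebrain markers moved the other way, with 7 of 11 lower with RA and 2 with 4-oxo-RA, from 870 to 1030 CPM in DMSO to 461 to 649 and 546 to 715, and six3.S at 0. With 1 library left out, 3 to 7 were lower with RA and 0 to 2 with 4-oxo-RA. Of 7 cement gland markers 4 fell with RA and 2 with 4-oxo-RA, from 2570 to 3670 CPM in DMSO to 2140 to 2270 and 2150 to 2480, with muc2.S at 0. Of 12 neural crest markers 4 fell with RA and 1 with 4-oxo-RA, from 536 to 597 CPM to 340 to 504 and 446 to 460, with none at 0. Those counts were 1 to 7 and 0 to 3 with 1 library left out.

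The 8 midbrain-hindbrain boundary markers gave 2 called with each retinoid, both higher and both copies of fgf8, which this list shares with the ligands. Their sum was 100 to 139 CPM in DMSO, 120 to 161 with RA and 144 to 161 with 4-oxo-RA, with en1.S at 0. The rest of that list lay mostly the other way, with a median log2 change over the 8 of −0.68 with RA and −0.50 with 4-oxo-RA. DESeq2 called 2 of them lower with RA and 1 with 4-oxo-RA, limma-voom 2 and 0, and the blocked fit 5 and 3. Over all genes with RA, DESeq2 called 232 of 41216 lower, edgeR with no filter 350 of 41216 and limma-voom 134 of 20811. The 8 do not include gbx2.1.S, named above for its profile close to dusp6.L. The counts, sums and medians of this list thus leave gbx2.1.S out. Its log2 change was 1.81 with RA (edgeR adjusted p = 4.68e-05) and 1.5 with 4-oxo-RA (edgeR adjusted p = 0.000372). Of 9 paraxial and posterior mesoderm markers 1 rose with RA and 0 with 4-oxo-RA, within sums of 28.8 to 54.4 CPM in DMSO, 19.7 to 56.9 and 24.1 to 47, with myf5.S at 0. The RA call was lost without DMSO replicate 2 or RA replicate 3, and with at least 10 counts required in every library. With 4-oxo-RA, DESeq2, edgeR with no filter and the blocked fit each called 1 of these markers higher. The blocked fit also called 1 lower with RA. Epidermis had 1 of 7 lower with RA and 0 with 4-oxo-RA, and its sum was 5260 to 6750 CPM in DMSO, 5150 to 5960 with RA and 5380 to 6300 with 4-oxo-RA. None of the 9 neural plate markers was called in the unblocked edgeR fit, while the blocked fit called 3 lower with RA and 0 with 4-oxo-RA, and edgeR with no filter called 2 lower with RA. At unadjusted edgeR p-values there were 2 and 1 below 0.05, beside 1961 and 1298 of all 20811 genes. For these markers DESeq2 called 1 lower with RA and 0 with 4-oxo-RA, and limma-voom called 0. Their sums were 907 to 1150 CPM in DMSO, 886 to 1170 with RA and 934 to 1150 with 4-oxo-RA. Over all genes the blocked fit called 3.17% lower and 3.5% higher with RA, and 1.31% lower and 2.05% higher with 4-oxo-RA. In it, 8 forebrain markers were lower with each retinoid, and 6 and 5 cement gland markers with RA and 4-oxo-RA. Also lower in that fit were 7 and 4 neural crest markers (1 was higher with each) and 3 epidermis markers with each. The part of these shifts in the rise of dusp6.L, spry2.S, etv1.S and etv4.L was not tested.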

How the data were processed

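The authors deposited raw gene counts, whole numbers with no normalization, in a joint table and in 9 tables of 1 library each, which equalled their columns of the joint table. Per the labels' protocols, 500 ng of RNA went into a stranded poly(A) kit with 12 PCR cycles and 50-base paired reads. STAR 2.7.3 is named in the submitters' processing notes. Counting tool, genome build and annotation are not given in the sources used here, and coordinates are left out.

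Changes were tested by quasi-likelihood in edgeR 4.0.16 (R 4.3.3), with TMM scaling (factors 0.94 to 1.06), edgeR's filter on low counts, a single fit of all 9 libraries and treatment as its one factor. Calls needed a p below 0.05 after Benjamini-Hochberg adjustment across 20811 genes. SEs are Wald SEs of that fit, CPM use TMM-scaled totals, and log2 CPM a prior count of 2. Homeolog ratios (limma 3.58.1) used a pseudocount of 0.5. The scripts were tested on simulated data.

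Deviations from the group mean were correlated between libraries that share a replicate number (r of 0.434 to 0.536 over 9 pairs, against −0.326 to −0.132 over 18 pairs of different numbers), so the numbers pair the samples. This comes from the data, not the labels. Adding the number as a block lowered the biological coefficient of variation from 0.272 to 0.138.

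Members, lists and tests were chosen with earlier results of these data known. The naming rule took every member, up to 4 called genes of each other FGF list (the 1 with the smallest p where none was called), at most 2 called genes of a marker list and the 5 closest profiles. List counts include 1 gene picked by this rule whose own values are not reported here. fgf14.S, fgfr3.S, fgfr1.L, spry4.L, il17rd.L, egr1.L, ratios, flanking genes and the pairing of etv4.L with etv1.S were chosen after values were seen. Alternatives were RLE scaling, DESeq2 1.42.0, limma-voom, no filter, at least 10 counts in every library, fits of 2 groups, the replicate block, each library left out, and summed homeologs.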

Additional observations from a re-analysis of the deposited data

How the results depend on the processing

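The 4 calls with RA (dusp6.L, spry2.S, etv1.S and etv4.L) held under every alternative run. With 4-oxo-RA all 4 held under every alternative other than leaving out single libraries, where 3 to 4 were called. The replicate block changed no call of a feedback gene, and 0 was called between the retinoids under any alternative. The number of genes called over the whole table moved more. With RA it was 349, and 636 with DESeq2, 831 with no filter on low counts, 1389 with the replicate block and 194 to 366 with 1 library left out. With 4-oxo-RA it was 153, and 324, 453, 700 and 75 to 150 in the same order. Between 4-oxo-RA and RA it was 0, and 13 with DESeq2, 1 with limma-voom, 46 with no filter, 33 with the replicate block and 0 to 1 with 1 library left out, the 1 without DMSO replicate 2. Of the 115 other FGF pathway genes 6 were called with RA, and 10 with no filter and 23 with the replicate block. With 4-oxo-RA 4 were called, and 7 and 12 under the same settings. The causes were not tested. Signs turned for changes near 0: spry1.L with RA (−0.022 with limma-voom, −0.013 with the replicate block, −0.27 to 0.20 with 1 library left out), spry1.L with 4-oxo-RA (−0.17 to 0.14), spry1.L between the retinoids (−0.17 to 0.29), spry1.S with RA (−0.029 to 0.30), spry1.S between the retinoids (−0.02 to 0.31) and fgf8.L between the retinoids (−0.013 to 0.16). Low counts limit 2 copies: spry2.L had 5 to 9 counts per group and dusp6.S 0, so changes in them were not detectable. The cause of these low counts was not tested.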
